A study of Mus musculus with 24 samples.

Results

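Sox1, Sox2, Sox3, Sox21, Sox4, Sox11, Sox5, Sox6, Sox8 and Sox9 are 10 genes of the SRY-box (SOX) transcription factor family that are used by progenitors of the nervous system. They were found by their symbols in a table of 14922 genes measured by poly(A) RNA sequencing in mouse neural stem cells (NSCs), and all 10 were present. The cells were grown from the cortex of E14.5 embryos as an adherent culture with EGF and FGF and were harvested at an early passage. FVB_WT and FVB_MD43 cells came from the FVB/NJ strain and were Smchd1+/+ or homozygous for MommeD43, a chemically induced point change in Smchd1, the gene of a chromosomal silencing protein. B6GFP_WT and B6GFP_MD43 cells came from C57BL/6J mice with GFP fused to Smchd1, without MommeD43 or homozygous for MommeD43 made by genome editing. The labels call the controls of the second strain Smchd1+/+, whereas the study describes them as homozygous for the fusion. Strain and GFP fusion therefore differed together and cannot be told apart. All libraries were labelled female. The replicate is a numbered cell line of the labels, which do not say whether lines came from separate embryos. The p-values of the limma fit rest on the weighted spread of libraries, with repeat libraries of a line only weakly linked (correlation 0.0826). Whether they reflect the spread between embryos is unknown.

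Of 24 labelled libraries, 2 were left out because their value in every gene was the mean of their group mates. The remaining 22 libraries came from 17 lines: 5 lines of FVB_WT and 4 each of FVB_MD43, B6GFP_WT and B6GFP_MD43. Levels are log2 CPM, which is reads scaled to a common library total (CPM) on the log2 scale, as deposited after the authors' correction for batch. Group values are given as the mean ± SD over lines. Absolute depth was unknown, and depth relative to the deepest library ranged from 0.137 to 1. Xist, the RNA of the inactive X chromosome of female cells, was below 1 CPM in every group mean, at values that the study's methods also describe as corrected for sex. NSC markers were high, with summed levels of 5240 to 7750 CPM per line over 9 genes, while 0 of 4 microglial markers were in the table. Smchd1 RNA does not check the labels, because MommeD43 is a point change.

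SOX proteins bind DNA through an HMG box and bend it, and they usually act with a partner such as a POU-domain or NFI factor. Sox1, Sox2 and Sox3 (SoxB1) keep neural cells in the progenitor state, and Sox21 (SoxB2) can counteract them. Sox4 and Sox11 (SoxC) are best known for turning on neuronal genes in newly formed neurons. Sox5 and Sox6 (SoxD) lack an activation domain of their own and tune the action of other SOX proteins. Sox8 and Sox9 (SoxE) are known for glial development, and Sox9 also for the stem cell state itself.

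The genes lie on 10 different chromosomes of GRCm38. Sox2 (Entrez 20674) spans 34650405 to 34652461 of chromosome 3 on the plus strand, as a single annotated transcript inside the long non-coding gene Sox2ot. Sox3 (Entrez 20675) spans 60891366 to 60893430 of chromosome X on the minus strand. Sox5 (Entrez 20678) spans 143828425 to 144781977 of chromosome 6 on the minus strand, with 14 annotated transcripts. Sox8 (Entrez 20681) spans 25565892 to 25570686 of chromosome 17 on the minus strand, and Sox9 (Entrez 20682) spans 112782224 to 112787760 of chromosome 11 on the plus strand. These are the 5 of 10 members that passed the test between the strains, beside 41.1% of all genes in wild type and 34.4% in MommeD43. RefSeq start-site windows on GRCm38.p6, from 250 bases before to 50 after an annotated start, were found for 8 members. Those of Sox2, Sox5 and Sox8 are shown because these genes are among the 5 that passed, as described further on. Capitals mark the letters ACAAT (a SOX core), CCAAT and GGGCGG (a GC box) on either strand.

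Sox2, chr3:34649745-34650044, plus strand: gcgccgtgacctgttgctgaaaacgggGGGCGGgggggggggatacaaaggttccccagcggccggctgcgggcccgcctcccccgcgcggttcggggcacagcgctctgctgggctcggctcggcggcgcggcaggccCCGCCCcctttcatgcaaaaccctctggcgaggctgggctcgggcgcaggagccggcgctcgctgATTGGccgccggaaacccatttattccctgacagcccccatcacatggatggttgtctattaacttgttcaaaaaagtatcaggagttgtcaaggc

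Sox5, chr6:143947057-143947356, minus strand: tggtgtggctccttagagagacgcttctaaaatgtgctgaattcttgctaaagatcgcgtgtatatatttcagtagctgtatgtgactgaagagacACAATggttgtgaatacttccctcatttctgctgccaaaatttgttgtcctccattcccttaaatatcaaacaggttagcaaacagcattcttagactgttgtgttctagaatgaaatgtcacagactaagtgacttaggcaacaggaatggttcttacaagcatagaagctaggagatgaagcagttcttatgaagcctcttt

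Sox8, chr17:25570637-25570936, minus strand: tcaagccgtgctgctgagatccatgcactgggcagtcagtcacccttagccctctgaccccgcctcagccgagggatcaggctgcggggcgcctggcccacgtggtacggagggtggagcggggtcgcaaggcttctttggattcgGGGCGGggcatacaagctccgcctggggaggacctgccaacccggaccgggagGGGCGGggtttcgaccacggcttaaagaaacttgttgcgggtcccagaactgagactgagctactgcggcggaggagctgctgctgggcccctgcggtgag

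The Sox2 and Sox8 windows were rich in CpG, with 27 and 21 CpG dinucleotides and 66.3% GC each, whereas the Sox5 window held 3 CpG and 39.7% GC. The median over all 32841 windows of the table was 7 CpG. The Sox2 window held 1 CCAAT and 2 GGGCGG, the Sox8 window 2 GGGCGG, and the Sox5 window 1 ACAAT. Over all windows, 31.0% held ACAAT, 37.4% CCAAT and 35.7% GGGCGG, so each of these letters is common and a match is a description only. The Sox2 window ends at 34650044, before the gene span given above begins at 34650405, so it does not hold the start of that span. The Sox5 window belongs to a start inside the longer gene span given above. Which start the cells used was not measured.

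Sox2, which sustains self-renewal of neural stem cells, had the highest level per kilobase of exon of the 10 genes in all 4 groups. On this scale (CPM per kb), its level was 134 ± 8.46 in FVB_WT, 142 ± 8.57 in FVB_MD43, 106 ± 3.29 in B6GFP_WT and 97.6 ± 11 in B6GFP_MD43 (SD over 5, 4, 4 and 4 lines). This was beyond the spread of the next gene in each group. Sox3 and Sox4 came next in FVB_WT, at 51.9 ± 4.05 and 45.6 ± 3.68 CPM per kb, and did not differ from each other beyond their spread. In B6GFP_WT they stood in the opposite order, with Sox4 at 41.0 ± 4.06 and Sox3 at 37.0 ± 3.21 CPM per kb, again within their spread. Sox11, Sox9, Sox8 and Sox21 followed within the spread of their neighbours in FVB_WT, from 34.5 down to 29.6 CPM per kb. Sox1, Sox6 and Sox5 were the lowest in every group. Sox1 ranged from 7.01 to 9.04 and Sox6 from 8.58 to 8.67 CPM per kb over the group means, and Sox5 from 3.42 to 5.17. The low values of Sox5 and Sox6 rest on the exon length used: with the longest transcript alone, the FVB_WT means were 6.80 for Sox5 and 14.8 for Sox6, which puts Sox6 above Sox1. With that length Sox5 was also above Sox1 in B6GFP_WT (8.88 against 7.01) and in B6GFP_MD43 (10.3 against 7.41), so that its place as the lowest gene holds in these 2 groups only with the length of all exons.

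**Figure D1:**
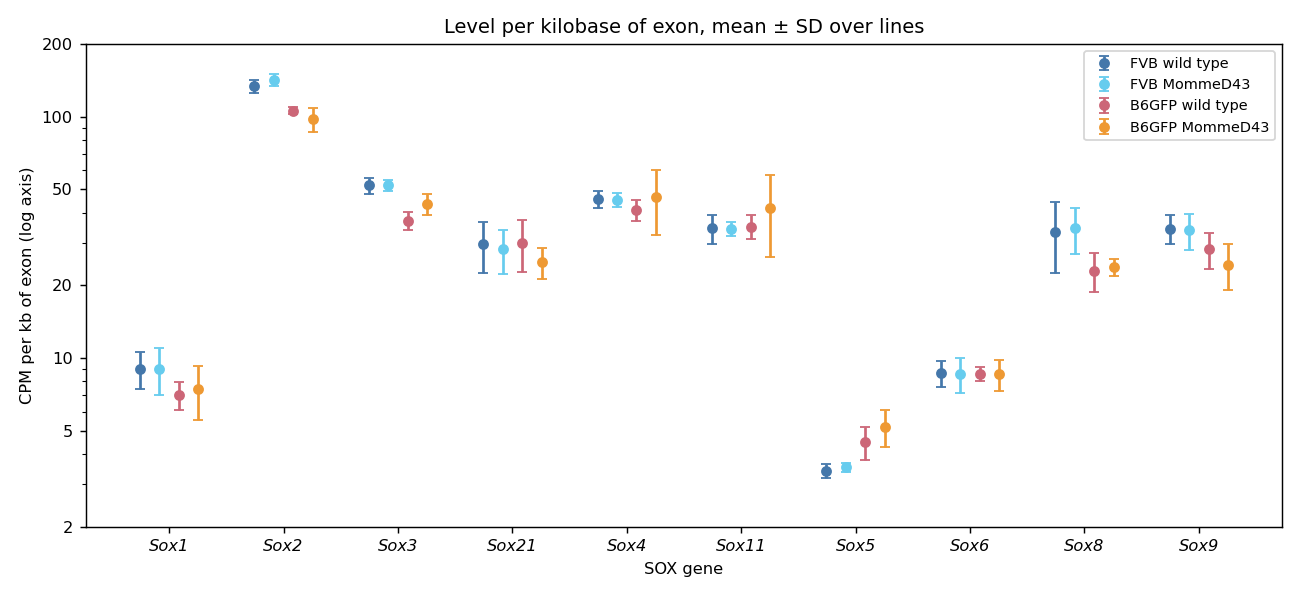
Level per kilobase of exon (CPM per kb, log axis) of the 10 SOX genes, shown as mean ± SD over lines in the 4 groups. Sox2 stands highest in every group, between 97.6 and 142, and Sox5 lowest, between 3.42 and 5.17. With the longest transcript as length Sox5 would lie above Sox1 in both B6GFP groups.

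The study asked what the MommeD43 change in Smchd1 does in these cells. Sox2 in FVB_WT lines was 8.0, 8.03, 8.14, 8.14 and 8.22 log2 CPM, and in FVB_MD43 lines 8.11, 8.11, 8.25 and 8.27. In B6GFP_WT lines it was 7.72, 7.74, 7.77 and 7.82 log2 CPM, and in B6GFP_MD43 lines 7.39, 7.69, 7.74 and 7.75. The genotypes overlapped within each strain, and 1 B6GFP_MD43 line lay below all others.

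No SOX gene passed the test for MommeD43 in either strain. By limma, 0 of the 10 passed in FVB, where 0.0737% of all genes did, and 0 of 10 in B6GFP, where 0% did. At an unadjusted p under 0.05 the count was also 0 of 10 in each, against 6.86% and 2.14% of all genes. Averaged over the strains 0 of 10 passed (0.0335% of all genes), with 0 of 10 also at an unadjusted p under 0.05 (4.62% of all genes). Line means of the genotypes overlapped for all 10 genes in both strains, while 1.05% of all genes in FVB and 1.23% in B6GFP had separate groups.

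Among the SoxB1 genes, the fitted difference of Sox2 (MommeD43 minus wild type, log2 CPM) was 0.03 in FVB (95% interval -0.0615 to 0.112) and -0.07 in B6GFP (-0.183 to 0.0420). For Sox3 it was -0.04 in FVB (-0.183 to 0.0940) and 0.05 in B6GFP (-0.131 to 0.230). Sox1 had the widest interval of the SoxB1 genes, from -0.395 to 0.173 around -0.11 in B6GFP, and from -0.286 to 0.151 around -0.07 in FVB. Sox21, the SoxB2 gene, differed by -0.03 in FVB (-0.214 to 0.148) and -0.09 in B6GFP (-0.323 to 0.147).

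The SoxC genes gave -0.06 for Sox11 (-0.215 to 0.0916) and 0.03 for Sox4 (-0.104 to 0.155) in FVB. In B6GFP they gave 0.02 for Sox11 (-0.177 to 0.222) and -0.09 for Sox4 (-0.254 to 0.0834). Of the SoxD genes, Sox5 had the narrower intervals, 0.07 in FVB (-0.0334 to 0.169) and -0.01 in B6GFP (-0.137 to 0.126). For Sox4 and Sox5 in B6GFP the plain differences of line means, 0.137 and 0.206, lay above these intervals. Without quality weights the fit gave 0.136 and 0.172. The weights were 0.101 for B6GFP_WT replicate 4 and 0.158 for B6GFP_MD43 replicate 2. Sox6 gave 0.02 (-0.146 to 0.190) and 0.05 (-0.171 to 0.266). The SoxE gene Sox8 had the highest value in FVB, 0.13 (-0.0645 to 0.333), against -0.05 in B6GFP (-0.304 to 0.213), and Sox9 gave -0.03 (-0.231 to 0.179) and -0.07 (-0.339 to 0.195). The median size of the 10 differences was 0.0388 in FVB and 0.0601 in B6GFP, beside 0.0585 and 0.0597 over all genes.

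The difference of the MommeD43 effect between the strains (B6GFP minus FVB) ran from -0.18 for Sox8 (SE 0.157) to 0.09 for Sox3 (SE 0.109), and 0 of 10 genes passed, with 0% of all genes passing and an adjusted p of 1 for each of the 10 by limma. At an unadjusted p under 0.05 the count was 0 of 10, against 3.08% of all genes. In FVB the count of 0 rose to 1 of 10 without FVB_MD43 replicate 2, when Sox6 gave 0.21 (SE 0.0624, adjusted p = 0.047 by limma). In that fit 6.54% of all genes passed, which puts 1 of 10 near the background.

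**Figure D2:**
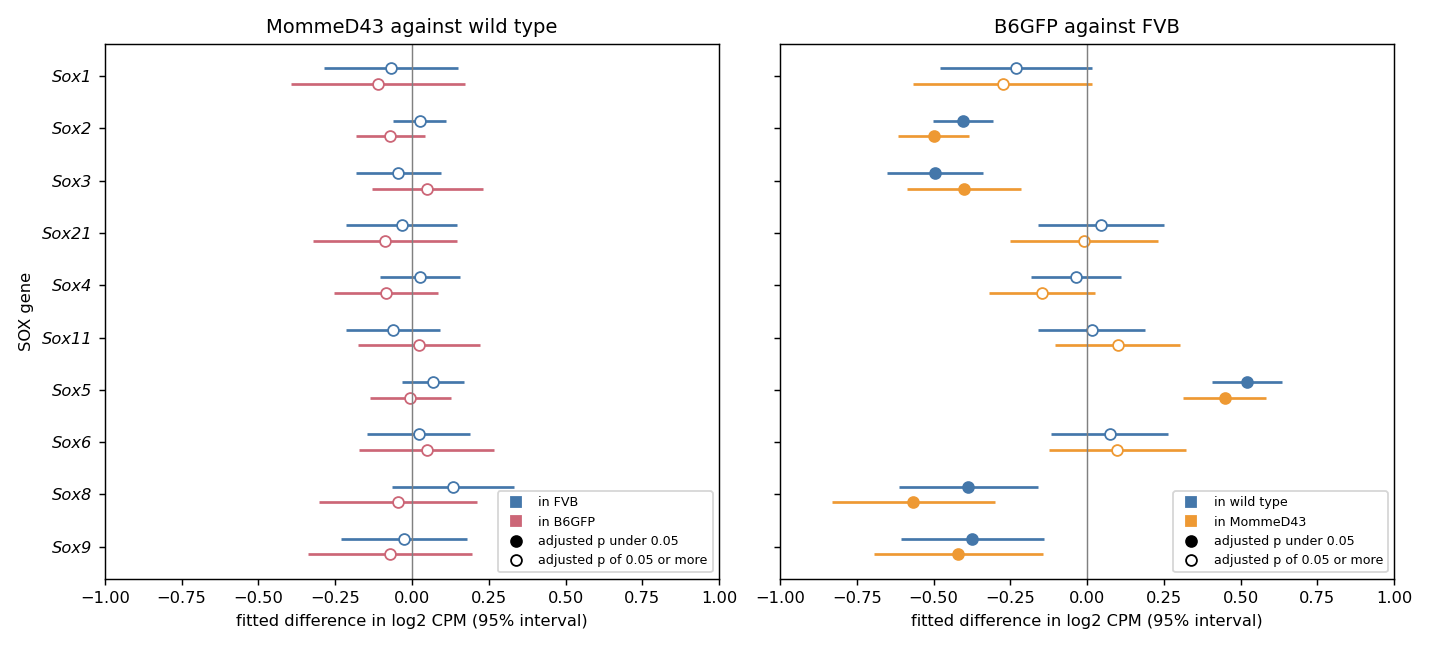
Fitted differences in log2 CPM with 95% intervals for the 10 SOX genes, MommeD43 against wild type within each strain (left) and B6GFP against FVB within each genotype (right); filled points have an adjusted p under 0.05. On the left every interval includes 0, and on the right Sox2, Sox3, Sox8 and Sox9 lie below 0 and Sox5 above it in both genotypes.

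The SOX genes differed between the strains in both directions. In wild type, 5 of the 10 genes passed, beside 41.1% of all genes, so this share is near the background. Lower in B6GFP were 4 of 10 (23.2% of all genes), namely Sox2, Sox3, Sox8 and Sox9, and higher was 1 of 10 (17.9%), Sox5. In MommeD43 cells the test passed the same 5 genes in the same directions, beside 34.4% of all genes (19.6% lower and 14.7% higher). These 2 comparisons use different libraries within a single fit. The study's methods name strain among the effects that were corrected, and whether this changed the size of the differences was not tested. The median difference of the 10 genes was -0.134 in wild type and -0.211 in MommeD43, beside -0.0215 and -0.0276 over all genes.

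Sox2 lines of the strains did not overlap in either genotype, as the values given above show. Group means were 8.11 ± 0.0910 in FVB_WT and 7.77 ± 0.0446 in B6GFP_WT, and 8.19 ± 0.0872 in FVB_MD43 and 7.64 ± 0.172 in B6GFP_MD43 (log2 CPM, SD over lines). The fitted difference, B6GFP minus FVB, was -0.40 in wild type (SE 0.0472, adjusted p = 9.05e-07 by limma), a fold of 0.756. In MommeD43 it was -0.50 (SE 0.0555, adjusted p = 7.52e-07 by limma), a fold of 0.708. In batch 1, the only batch with both strains, the values were -0.39 and -0.53. Sox2 passed in both genotypes under every alternative fit run. Sox2ot, whose transcripts run through Sox2 on the same strand, gave 0.02 in wild type (SE 0.160, adjusted p = 0.953 by limma) at group means of 2.91 to 3.37 log2 CPM.

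Sox3, the X-linked SoxB1 gene, was 6.62, 6.69, 6.72, 6.77 and 6.91 log2 CPM in FVB_WT lines and 6.12, 6.17, 6.33 and 6.39 in B6GFP_WT lines. In FVB_MD43 lines it was 6.64, 6.74, 6.76 and 6.83, and in B6GFP_MD43 lines 6.29, 6.45, 6.59 and 6.59. Every B6GFP line was below every FVB line of its genotype. The fitted difference was -0.50 in wild type (SE 0.0755, adjusted p = 2.69e-05 by limma) and -0.40 in MommeD43 (SE 0.0888, adjusted p = 0.0015 by limma). The call in wild type held under every alternative fit run, whereas that in MommeD43 was lost in batch 1 alone (-0.40) and without quality weights (-0.25). Mean Xist was -1.19 ± 0.749 log2 CPM in FVB_WT and -0.41 ± 0.926 in B6GFP_WT, and -0.53 ± 0.660 in FVB_MD43 and -0.11 ± 0.292 in B6GFP_MD43. Its fitted strain difference was 0.04 in wild type (adjusted p = 0.934 by limma) and 0.98 in MommeD43 (adjusted p = 0.0349 by limma). These fitted values do not match the distances between the group means. The part of Xist in the Sox3 values was not tested. Sox1, the third SoxB1 gene, had values of the same sign, -0.23 in wild type and -0.27 in MommeD43, that did not pass (adjusted p = 0.129 and 0.137 by limma). It passed in MommeD43 with line means in place of libraries (-0.38, adjusted p = 0.0209 by limma), without FVB_MD43 replicate 2 (-0.49), B6GFP_MD43 replicate 1 (-0.32) or B6GFP_MD43 replicate 3 (-0.31), and in wild type without B6GFP_WT replicate 3 (-0.32). Sox1ot, a non-coding gene that overlaps Sox1 on the same strand, gave -1.16 in wild type (SE 0.394, adjusted p = 0.0227 by limma) and -0.82 in MommeD43, which did not pass (adjusted p = 0.181 by limma), at group means from -0.79 to 0.52 log2 CPM.

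Sox5 was the only member higher in B6GFP by the test. Its lines were 5.54, 5.55, 5.61, 5.61 and 5.78 log2 CPM in FVB_WT and 5.66, 6.01, 6.10 and 6.20 in B6GFP_WT. They were 5.57, 5.68, 5.70 and 5.71 in FVB_MD43 and 6.00, 6.13, 6.13 and 6.54 in B6GFP_MD43. In wild type 1 B6GFP line, replicate 4, fell within the FVB range, and in MommeD43 the strains did not overlap. The fitted difference was 0.52 in wild type (SE 0.0552, adjusted p = 2.28e-07 by limma), a fold of 1.44, and 0.45 in MommeD43 (SE 0.0649, adjusted p = 1.98e-05 by limma), a fold of 1.36. Group means in wild type were 5.62 ± 0.0933 in FVB_WT and 5.99 ± 0.235 in B6GFP_WT (log2 CPM, SD over lines). Their plain difference lay below the 95% interval of the fit, 0.407 to 0.636. The library of B6GFP_WT replicate 4 had a weight of 0.101 in the fit. Batch 1 alone gave 0.50 and 0.49, and Sox5 passed in both genotypes under every alternative fit run. Sox6, its close relative, differed by 0.07 in wild type (95% interval -0.117 to 0.264) and 0.10 in MommeD43 (-0.125 to 0.323) and did not pass. Several annotated antisense genes lie within Sox5 and Sox6, and reads of overlapping genes may be counted together.

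Sox8 and Sox9 were lower in B6GFP with more spread. Sox8 lines ranged from 6.16 to 7.33 log2 CPM in FVB_WT (6.65 ± 0.426) and from 5.69 to 6.34 in B6GFP_WT (6.14 ± 0.300). They ranged from 6.42 to 7.12 in FVB_MD43 (6.72 ± 0.301) and from 6.05 to 6.32 in B6GFP_MD43 (6.21 ± 0.122). The strains overlapped in wild type and not in MommeD43. The fitted difference of Sox8 was -0.39 in wild type (SE 0.108, adjusted p = 0.00706 by limma) and -0.57 in MommeD43 (SE 0.127, adjusted p = 0.00172 by limma). The antisense gene 2810468N07Rik overlaps Sox8 and gave -0.15 in wild type (adjusted p = 0.227 by limma) and -0.31 in MommeD43 (adjusted p = 0.0361 by limma), so reads of the pair may be mixed.

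Sox9 was 7.14 ± 0.195 log2 CPM in FVB_WT, 6.85 ± 0.233 in B6GFP_WT, 7.11 ± 0.239 in FVB_MD43 and 6.63 ± 0.325 in B6GFP_MD43, with overlapping lines in both genotypes. The fitted difference was -0.37 in wild type (SE 0.112, adjusted p = 0.0110 by limma) and -0.42 in MommeD43 (SE 0.131, adjusted p = 0.0175 by limma). Both SoxE calls in both genotypes were lost without quality weights, and in wild type also without B6GFP_WT replicate 2 (Sox8 -0.31, Sox9 -0.29). In wild type the Sox8 call was also lost with line means in place of libraries (-0.31, adjusted p = 0.0635 by limma). The Sox9 call was also lost in batch 1 alone (-0.34 in wild type and -0.47 in MommeD43), and in MommeD43 without FVB_MD43 replicate 1 (-0.29), B6GFP_MD43 replicate 4 (-0.31) or B6GFP_WT replicate 2 (-0.33).

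Sox21 and the SoxC genes did not pass in either genotype. Sox21 differed by 0.05 in wild type (95% interval -0.159 to 0.251) and -0.01 in MommeD43 (-0.250 to 0.232). Sox11 differed by 0.01 (-0.159 to 0.188) and 0.10 (-0.105 to 0.304), and Sox4 by -0.04 (-0.183 to 0.110) and -0.15 (-0.320 to 0.0256). Sox4 passed in MommeD43 without FVB_MD43 replicate 2 (-0.24) or B6GFP_MD43 replicate 3 (-0.18).

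Separate line means of the strains were seen for 2 of 10 genes in wild type, Sox2 and Sox3, both lower in B6GFP, beside 15.9% of all genes (9.38% lower). In MommeD43 they were seen for 4 of 10, Sox2, Sox3 and Sox8 lower and Sox5 higher, beside 21.3% of all genes (11.5% lower and 9.85% higher).

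**Figure D3:**
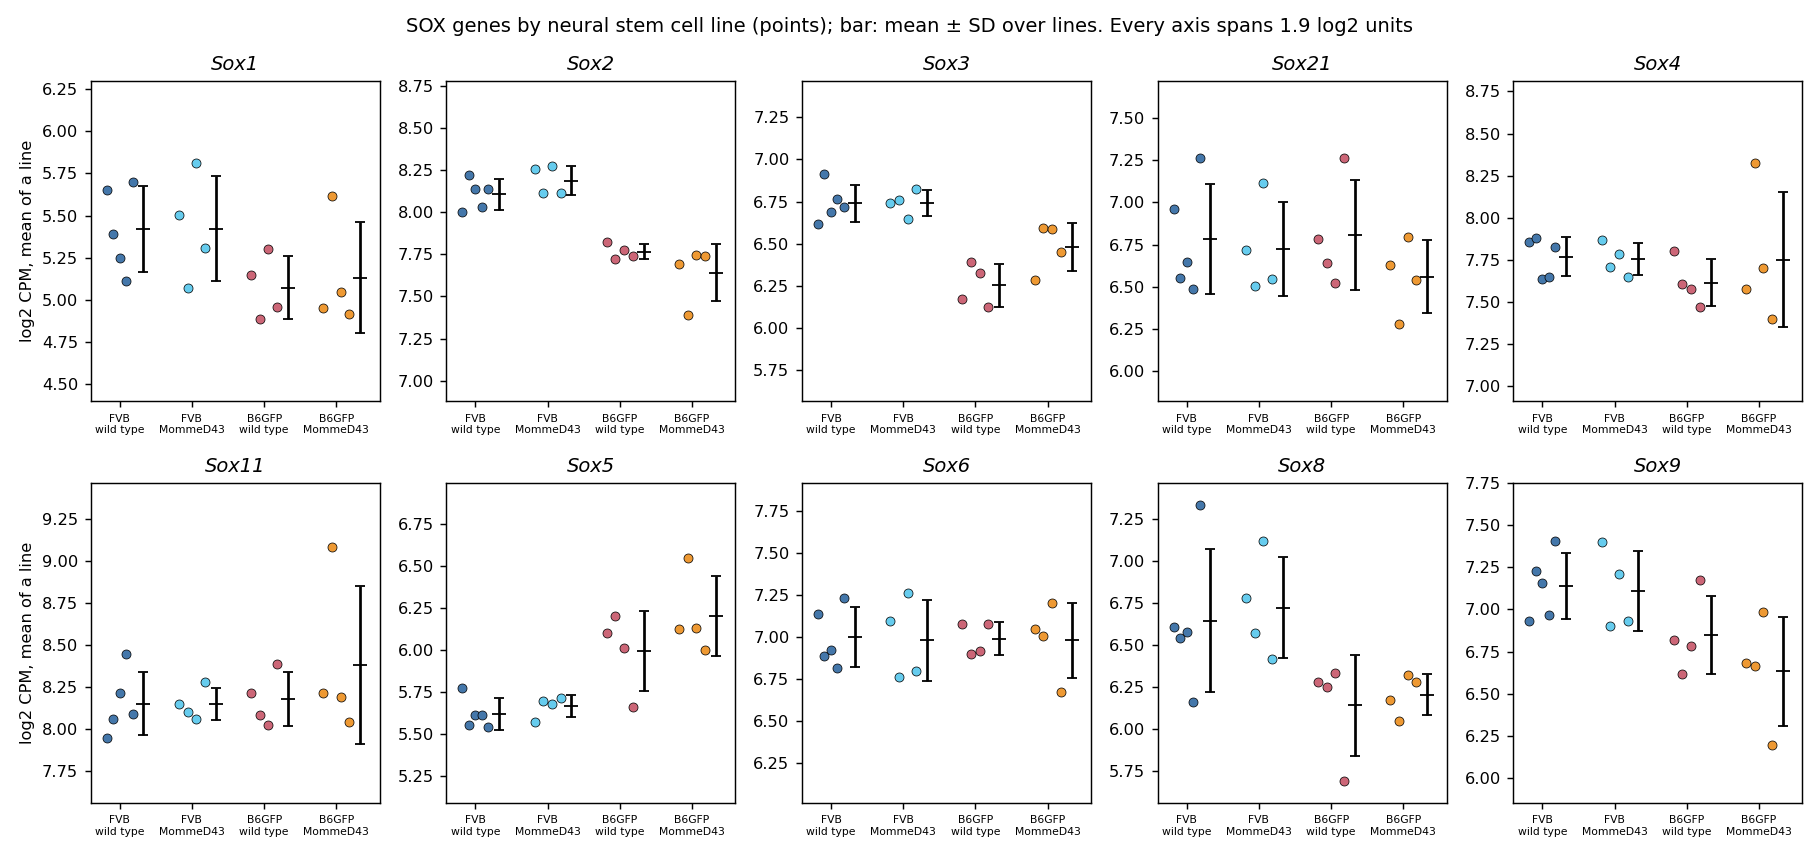
Level of the 10 SOX genes in log2 CPM in each of the 17 lines (points) with the mean ± SD over lines (bar) for the 4 groups; every vertical axis spans the same number of log2 units. FVB and B6GFP lines separate for Sox2 and Sox3 in both genotypes, and B6GFP_MD43 replicate 2 stands high for Sox11 (9.08) and Sox4 (8.32) and low for Sox2 (7.39).

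Of the cell type marker lists, only that of astrocytes passed in full between the strains. All 5 astrocyte markers were lower in B6GFP in both genotypes, and their summed level per line was 322 to 504 CPM in FVB and 192 to 254 CPM in B6GFP. Most of this sum was Aldoc and Aldh1l1, which progenitors also express, while Gfap, Aqp4 and S100b had group means from 1.02 down to -2.19 log2 CPM. Of 9 NSC markers, 3 passed as higher and 5 as lower in B6GFP in wild type, and in MommeD43 3 and 4. Of 7 neuron markers, 1 was higher and 2 lower in wild type, and 2 and 1 in MommeD43. Of 7 oligodendrocyte lineage markers, 2 were higher and 2 lower in wild type, and 2 and 3 in MommeD43. These counts, and those of the lists that follow, stand beside 41.1% of all genes passing in wild type and 34.4% in MommeD43. Endothelial markers summed to at most 11.8 CPM and mesenchymal markers to at most 3.66 CPM in any line. The part of these markers in the SOX values was not tested, and in such bulk RNA fewer cells of a type and less RNA per cell cannot be told apart.

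Other SRY-box genes in the table were Sox7, Sox10, Sox12 and Sox13, 4 of the 10 that were looked for. Sox13, another SoxD gene, was lower in B6GFP by the test, at -0.77 in both genotypes (SE 0.0887 and 0.104, adjusted p = 7.43e-07 and 8.60e-06 by limma). The SoxD genes Sox5, Sox6 and Sox13 thus gave a higher, an uncalled and a lower value. Sox10, a SoxE gene of oligodendrocytes, was lower in MommeD43 (-1.5, SE 0.517, adjusted p = 0.0294 by limma) and did not pass in wild type (-0.73, adjusted p = 0.195 by limma) at group means from -0.71 to 0.72 log2 CPM. Sox7 was higher by the test in wild type (1.76, SE 0.562, adjusted p = 0.0161 by limma) and did not pass in MommeD43 (1.46, adjusted p = 0.0934 by limma). Its levels were low, with group means from -2.29 ± 0.701 log2 CPM in FVB_WT to 0.35 ± 2.72 in B6GFP_WT, and the wild-type lines overlapped.

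Of 9 partner factors, 1 was higher and 2 lower in B6GFP in wild type, and 1 and 1 in MommeD43. Pou3f2 (Brn2), a POU factor that binds beside Sox2 in neural cells, differed by -0.45 in wild type (SE 0.0844, adjusted p = 2.37e-04 by limma) and by -0.44 in MommeD43. Pou3f1 differed by -0.70 in wild type (SE 0.144, adjusted p = 6.21e-04 by limma), and its value of -0.24 in MommeD43 did not pass. Nfia, an NFI factor that acts with Sox9 in gliogenesis, was higher in both, by 0.20 (SE 0.0483, adjusted p = 0.00236 by limma) and 0.23.

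Among 5 known targets of the SoxB1 proteins, 1 was higher and 2 lower in B6GFP in each genotype, 3 of 5 beside 41.1% and 34.4% of all genes. Nes, whose neural enhancer is bound by Sox2, was higher by 0.67 (SE 0.0686, adjusted p = 1.62e-07 by limma) in wild type and by 0.70 in MommeD43. Hes5, a Notch effector, differed by -2.66 (SE 0.320, adjusted p = 1.36e-06 by limma) and -3.21, and Nr2e1, a nuclear receptor of neural stem cells, by -0.30 (SE 0.111, adjusted p = 0.0332 by limma) and -0.40. Of 3 SoxC targets, 1 passed in each genotype: Dcx, a microtubule protein of young neurons, differed by -1.90 (SE 0.386, adjusted p = 5.24e-04 by limma) and -1.85. Group means of Dcx were low, at 1.87 ± 0.358 log2 CPM in FVB_WT and -0.83 ± 1.23 in B6GFP_WT. They were 1.79 ± 0.207 in FVB_MD43 and 1.5 ± 2.61 in B6GFP_MD43, with overlapping lines. B6GFP_MD43 replicate 2, high in Dcx as described further on, had a weight of 0.158 in the fit. Of 7 SoxE targets, 1 was higher and 3 lower in wild type, and 0 and 2 in MommeD43. Mmd2 differed by -1.84 (SE 0.306, adjusted p = 7.01e-05 by limma) and -1.81, and Zcchc24 by -0.33 and -0.35. The cartilage genes Col2a1 (-1.33) and Acan (0.65) passed in wild type and not in MommeD43 (-1.08 and 0.69), at group means of at most -1.78 and 0.19 log2 CPM. No gene of these lists passed in a comparison of MommeD43 with wild type.

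Lines of a group differed least in Sox2 and Sox3. The SD between lines within groups was 0.108 log2 units for Sox2 and 0.116 for Sox3, and rose to 0.294 for Sox21 and 0.318 for Sox8. Over the 6408 genes above 5 log2 CPM the median was 0.145, with quartiles of 0.108 and 0.200. For 5 lines there was a library in each of 2 batches. The SD between these repeat libraries was lowest for Sox2 (0.0760) and highest for Sox11 (0.229), and for Sox3 it was 0.163, larger than its SD between lines.

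Line B6GFP_MD43 replicate 2, a single library, stood apart. Its Sox11 was 9.08 log2 CPM, with the other 3 lines of its group at 8.04 to 8.21, and its Sox4 was 8.32 against 7.40 to 7.70. Sox1 (5.62) and Sox5 (6.54) were also the highest of the group, and Sox2 (7.39) and Sox21 (6.28) the lowest. In the same library Dcx was 5.20 log2 CPM, Tubb3 6.48, Stmn2 2.97 and Rbfox3 3.06, all markers of neurons. In the other B6GFP_MD43 libraries Dcx was -0.80 to 1.47 and Tubb3 2.03 to 3.85 log2 CPM. The summed neuron markers of the B6GFP_MD43 lines reached 1340 CPM, with at most 978 CPM in any line of the other groups. Most of this sum was Map2, with group means of 822 to 947 CPM. Map2 varied little over the B6GFP_MD43 lines (9.89 ± 0.0619 log2 CPM) and does not mark replicate 2. The remaining neuron markers, Syt1 and Snap25, were 6.04 ± 1.4 and 1.33 ± 1.99 log2 CPM over these lines, which does not show where replicate 2 lay. The part of the neuron markers in the SOX values of replicate 2 was not tested. The fit gave this library a weight of 0.158, and without it Sox2 differed between the strains in MommeD43 by -0.49 and Sox5 by 0.42, both still passing.

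**Figure D4:**
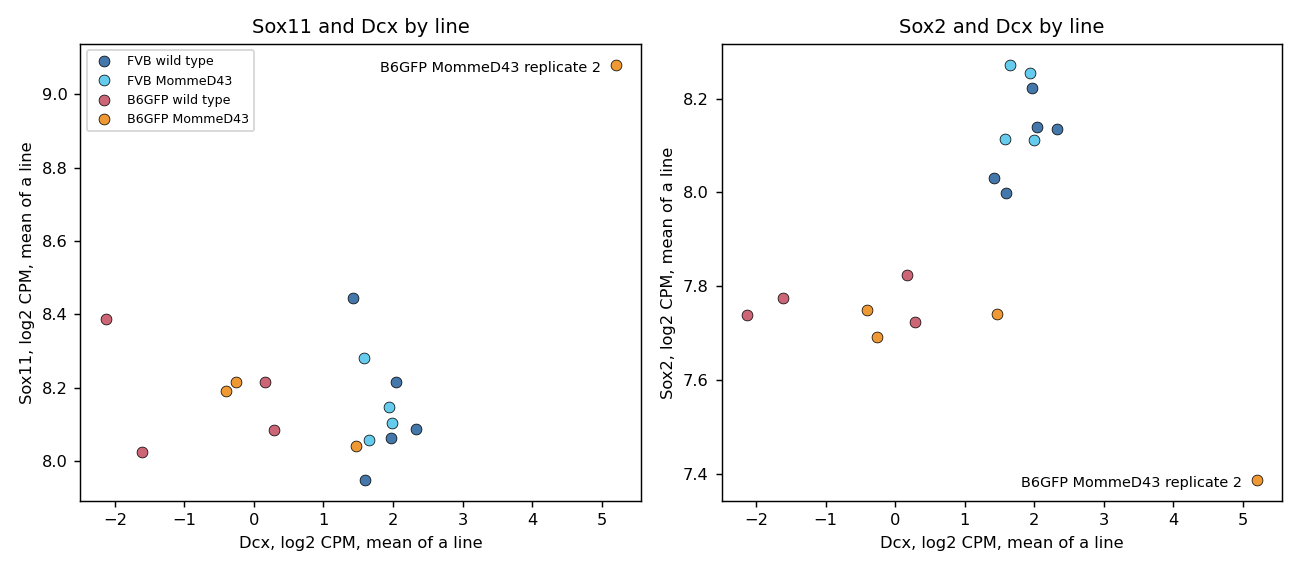
Sox11 (left) and Sox2 (right) against Dcx, a neuronal gene, in log2 CPM for each of the 17 lines, coloured by group. B6GFP_MD43 replicate 2 lies apart at a Dcx of 5.20, with the highest Sox11 (9.08) and the lowest Sox2 (7.39) of all lines.

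Whether the SOX genes varied together from line to line was examined on the 17 line means after subtracting group means, for 45 pairs of genes, with 100000 permutations within groups. Only group means were removed, and the permutations mixed lines of different batches and depths. The part of batch or depth in these correlations was not tested. Correlations ran from -0.72 to 0.75. Only Sox21 and Sox6 passed, with a Pearson r of 0.75 (permutation p = 0.00096, adjusted p = 0.0432). Spearman's rho was also 0.75 (permutation p = 0.00285, adjusted p = 0.0828) and did not pass, and r was 0.75 without the 2 lines farthest from the median of Sox21. No pair passed by Spearman's rho or after centring each library on its median. Sox6 and Sox9 had an r of 0.75 and Sox1 and Sox4 of 0.71, both with a permutation p adjusted to 0.0805.

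Close relatives did not vary together by this test. Sox4 and Sox11 had an r of 0.59 (permutation p = 0.241, adjusted p = 0.521), which rested on B6GFP_MD43 replicate 2, as it was -0.37 without this line. Sox5 and Sox6 gave -0.00, Sox8 and Sox9 0.22, Sox2 and Sox3 -0.14, Sox1 and Sox3 -0.01 and Sox1 and Sox2 -0.20, with adjusted permutation p-values from 0.631 to 0.993. The negative r of Sox2 and Sox11, -0.72 (permutation p = 0.0645, adjusted p = 0.221), was -0.22 without the same line.

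**Figure D5:**
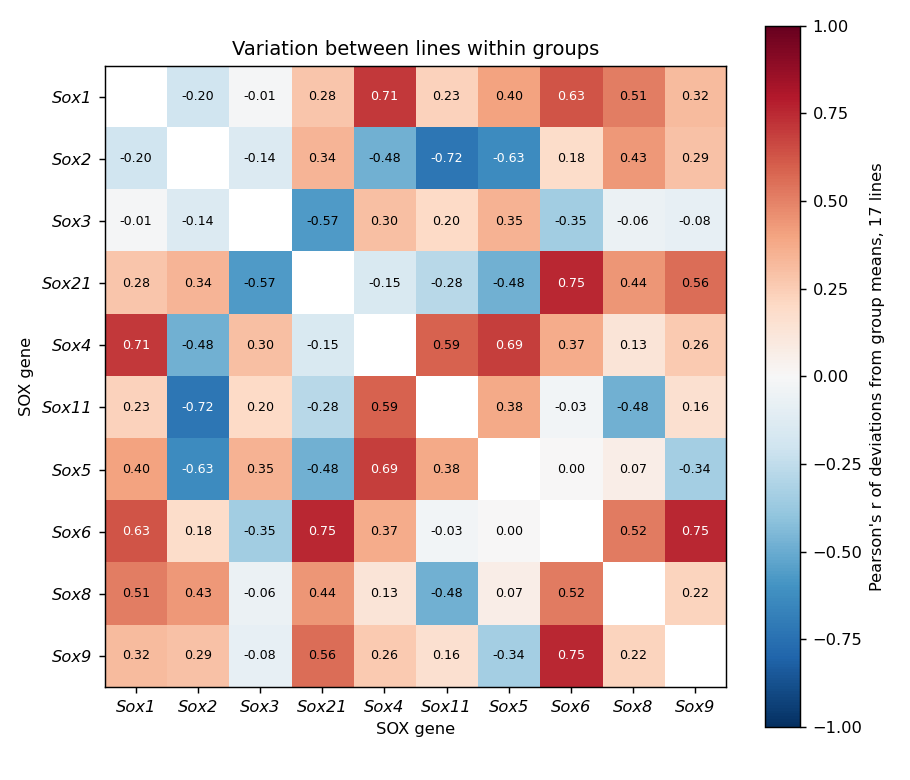
Pearson's r of each pair of SOX genes over 17 lines, from deviations of line means from their group mean (colour and number). Sox21, Sox6 and Sox9 give positive values with each other, 0.75 for Sox21 with Sox6, 0.75 for Sox6 with Sox9 and 0.56 for Sox21 with Sox9.

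For 1 member of each subfamily the 3 genes with the highest r over the same 17 line deviations were looked up among 12833 genes with a mean above 1 CPM, as a description with no test. Nearest to Sox2 were Psmb10 (r 0.890), B3galt5 (0.880) and Igfbp2 (0.879), which fell to 0.757, 0.805 and 0.680 without B6GFP_MD43 replicate 2. Nearest to Sox11 were St3gal1 (0.955), Syne2 (0.941) and Usf3 (0.927), at 0.838, 0.827 and 0.818 without that line. For Sox21 they were Ubxn8 (0.940), Zfp608 (0.934) and Gm4876 (0.928). For Sox6 they were 1700086L19Rik (0.947), Ugdh (0.925) and Tgfa (0.905), and for Sox9 1700007K13Rik (0.921), Scml4 (0.887) and Vps18 (0.880). The members themselves were left out of this search, and the lines share library batches and depth.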

How the data were processed

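The authors trimmed reads with Trim Galore 0.4.4 and mapped them with HISAT2 2.0.5 to GRCm38.p6, per the labels and the study's methods; the counting tool, annotation and strand setting are not given in the sources used here. The deposited values are log2 CPM that the authors corrected for batch, and per the study's methods for sex and strain, in a fit with libraries not analysed here (limma 3.40.6, with edgeR). The strains still differed in these values. Absolute read counts are unknown, so no counting interval is given. The batch is the one named in the sample titles: batch 1 holds both strains, batch 2 FVB and batch 3 B6GFP alone. Of 24 columns, 2 equal the mean of their group mates (within 1e-06) and were left out. Near the lowest values, 3143 values were whole multiples of 1 read step (100%, tolerance 0.05 of a step), which gave depth relative to the deepest library. Batch 2 was shallowest (0.137 to 0.190), against 0.526 to 0.893 for batch 1 and 0.435 to 1 for batch 3.

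Here limma 3.58.1 in R 4.3.3 was fitted to all 14922 genes with group and batch as terms, array quality weights (0.1 to 4.9), line as a block (consensus correlation 0.0826) and a mean-variance trend. The Benjamini-Hochberg adjustment covered all genes, and an adjusted p under 0.05 passed. Fitted differences weight libraries unequally and can differ from differences of group means. Levels per kb use the exons of GENCODE vM21. Named genes are the 10 members, list genes that passed, and the 3 genes most correlated with 1 member per subfamily. Sox2ot, Sox1ot and 2810468N07Rik were added because they overlap members. Members and lists were chosen with earlier results of these data known. The procedure was tested on simulated data. Same-numbered lines did not deviate together (correlations from -0.484 to 0.138). Replicates are the numbered cell lines, and repeat libraries of a line are technical. Alternatives were all 24 columns, single batches, median centring, a filter on low values, log2(CPM + 1), line means, no trend, no weights, the replicate number as a block, and leaving out each line; chosen after seeing the data were correlations and a difference of Sox2 means without B6GFP_MD43 replicate 2 and lengths by the longest transcript.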

Additional observations from a re-analysis of the deposited data

Results flagged for a closer look

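In B6GFP_MD43, Sox2 of replicate 2 (7.39 log2 CPM) lay below the other 3 lines (7.69 to 7.75), with a gap of 0.304 in a range of 0.362. Sox11 of the same line (9.08) lay above the others (8.04 to 8.21), with a gap of 0.866 in a range of 1.04. In B6GFP_WT, Sox8 of replicate 4 (5.69) lay below the others (6.25 to 6.34), with a gap of 0.560 in a range of 0.641, and the fit gave this library a weight of 0.101. These 3 sets passed Dixon's 95% limit for 1 line far from the rest among 40 sets of lines examined, and chance alone gives about 1 in 20.

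Sox2 passed for MommeD43 in neither strain, and its line values lay on opposite sides of the wild-type means. All 4 FVB_MD43 lines were above the mean of FVB_WT, with a difference of means of 0.0824, and all 4 B6GFP_MD43 lines were below that of B6GFP_WT, with a difference of -0.123. Without B6GFP_MD43 replicate 2 the latter was -0.0383, and the fitted FVB difference was below 0 with the replicate block (-0.0146) and in batch 2 alone (-0.0433). FVB_MD43 replicates 2 and 5 both rounded to the FVB_WT mean of 8.11 log2 CPM. B6GFP_MD43 replicates 3 and 4 (7.75 and 7.74) were close to the B6GFP_WT mean of 7.77, beside an SD between repeat libraries of 0.076. In B6GFP all 4 MommeD43 lines also lay on 1 side of the wild-type mean for Sox3 (0.227), Sox21 (-0.245) and Sox5 (0.206). The test of the difference between strains did not pass (-0.10, SE 0.0683, adjusted p = 1 by limma).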

How the results depend on the processing

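Sox2 and Sox5 in both genotypes and Sox3 in wild type kept their strain call in every alternative. The count of genes passing between the strains, 5 of 10 in each genotype, became 3 in wild type and 2 in MommeD43 without quality weights (8.44% and 6.82% of all genes), 9 in MommeD43 with all 24 columns (93.8% of all genes), and 3 in MommeD43 in batch 1 alone (24.1%). Line means gave 4 in wild type (35.6%) and 6 in MommeD43 (44.5%), with Sox8 lost and Sox1 gained. Leaving out 1 line gave 3 to 6 in wild type. The 3 came without B6GFP_WT replicate 2 (30.5% of all genes) and the 6 without B6GFP_WT replicate 3 (41.6%). In MommeD43 it gave 4 to 7. The 7 came without FVB_MD43 replicate 2 (40.2% of all genes) or B6GFP_MD43 replicate 3 (54.8%). The 4 came without FVB_MD43 replicate 1 (32.7%), B6GFP_WT replicate 2 (33.1%) or B6GFP_MD43 replicate 4 (31.1%). For MommeD43 against wild type in FVB it gave 0 to 1 (1 without FVB_MD43 replicate 2, where 6.54% of all genes passed). The replicate block gave 6 genes in each genotype (46.0% and 32.6% of all genes), Sox1 being added (-0.38 and -0.50). The 1 correlated pair became 0 with centred libraries. The cause of these changes was not tested. No absolute depth was known, so the counting error behind the low genes is not stated.

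These differences did not pass in the fit reported above or under the alternative (log2 CPM). For MommeD43 in FVB, the sign changed without quality weights for Sox4 (-0.0333), Sox11 (0.00214) and Sox6 (-0.0337), with line means for Sox1 (0.00857) and Sox9 (0.0171), in batch 1 alone for Sox9 (0.11), in batch 2 alone for Sox2 (-0.0433), Sox4 (-0.175), Sox11 (0.0189), Sox6 (-0.21) and Sox8 (-0.101), with the replicate block for Sox2 (-0.0146), Sox4 (-0.0465) and Sox6 (-0.0101). For MommeD43 in B6GFP, it changed without quality weights for Sox1 (0.0469), Sox4 (0.136), Sox5 (0.172) and Sox8 (0.0414), with line means for Sox5 (0.0356), with all 24 columns for Sox4 (0.0296), Sox5 (0.086) and Sox8 (0.0159), in batch 1 alone for Sox11 (-0.0839) and Sox5 (0.0185), in batch 3 alone for Sox1 (0.281), Sox21 (0.248), Sox4 (0.308), Sox5 (0.0654), Sox8 (0.02) and Sox9 (0.204), with the replicate block for Sox11 (-0.0065) and Sox5 (0.0361). Between the strains in wild type, it changed without quality weights for Sox21 (-0.0166) and Sox6 (-0.0311), with line means for Sox11 (-0.0109), with centred libraries for Sox4 (0.0302), in batch 1 alone for Sox4 (0.0157), with the replicate block for Sox6 (-0.0164). Between the strains in MommeD43, it changed without quality weights for Sox4 (0.00788), with centred libraries for Sox21 (0.0581).

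Leaving out 1 line gave ranges across 0 for MommeD43 in FVB (Sox1 -0.146 to 0.147, Sox2 -0.00265 to 0.0973, Sox3 -0.0956 to 0.0743, Sox21 -0.0903 to 0.0542, Sox4 -0.00875 to 0.119, Sox6 -0.0641 to 0.213, Sox9 -0.129 to 0.256), in B6GFP (Sox3 -0.0387 to 0.129, Sox11 -0.0534 to 0.0357, Sox5 -0.0414 to 0.0634, Sox8 -0.0763 to 0.000131, Sox9 -0.11 to 0.0657), for the difference of that effect (Sox3 -0.0242 to 0.176), between the strains in wild type (Sox21 -0.00712 to 0.073, Sox11 -0.00821 to 0.0434, Sox6 -0.0256 to 0.104) and in MommeD43 (Sox21 -0.084 to 0.0258, Sox6 -0.0687 to 0.178). Correlations without the 2 farthest lines were 0.13 for Sox1 and Sox3, 0.14 for Sox2 and Sox3, -0.33 for Sox4 and Sox11, 0.04 for Sox5 and Sox6 and -0.05 for Sox8 and Sox9, and without B6GFP_MD43 replicate 2 they were 0.43 for Sox1 and Sox2, 0.16 for Sox2 and Sox3 and -0.37 for Sox4 and Sox11.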
